A study of Arabidopsis thaliana with 14 samples.

Results

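The MADS-box genes outside the FLC clade were taken from the RefSeq annotation of the TAIR10.1 assembly. Nuclear protein-coding genes were kept whose product name holds the words MADS-box, AGAMOUS-like or K-box region, and FLC, SVP, FLM and MAF2 to MAF5 were left out. This gave 114 of 27444 nuclear protein-coding genes, with 41 members on chromosome 5 and 33 on chromosome 1. The rule used no measured value.

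H3K36me3, trimethylation of histone H3 at lysine 36, was mapped by chromatin immunoprecipitation and sequencing (ChIP-seq) in Arabidopsis thaliana Col-0. Plants were kept for 5 weeks at 16 °C in short days, with 8 h of light and 16 h of dark, and tissue enriched in the shoot apical meristem by removing leaves, which the labels give as meristem with leaves of early stages, was taken at 16 °C or 1 day after transfer to 25 °C. There were 4 H3K36me3 and 3 total H3 samples per temperature, each from 0.5 g of tissue, and the growth conditions and genotype were otherwise shared. The label of H3K36me3 replicate A at 25 °C names the H3 antibody although its title names H3K36me3, and it could not be looked at on its own. Each deposited list of H3K36me3 regions pools the replicates of 1 temperature, so every value below is a single value per temperature, with no spread between replicates and no test across them. The 16 °C list held 50290 regions and the 25 °C list 52588. The depth of the libraries is unknown, and in tissue of mixed cells a mark present in few cells and a weak mark in many cannot be told apart.

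MADS-box proteins bind DNA through a conserved domain at the start of the protein. Plant members of the MIKC type add a keratin-like K domain, through which they form the dimers and tetramers that specify floral organs, time the floral transition and shape roots and fruits. MIKC* members act mainly in pollen, while type I members lack the K domain, are often intronless and are known mostly from the female gametophyte and the endosperm. H3K36me3 is laid down along the bodies of transcribed genes as RNA polymerase II elongates, whereas many floral MADS-box genes are known to be silenced by Polycomb group proteins in leaves.

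The label was first checked against the coding sequences. A MADS domain was found by iterated profile search in the translation of 102 of the 114 members, and 39 of these also had a K domain. The other 12 had no MADS domain, among them AT1G31150, AT2G41440, AT2G41445 and AT2G41470, which had only K domain similarity. Hence, the product name and the domain found differed for these genes, except for AT1G31150, whose name gives only a K-box region.

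Few members carried H3K36me3. Marked genes are those whose body, from annotated start to end, shares at least 1 bp with a region. At 16 °C, 24 of 114 members were marked (21.1%, Wilson 95% interval 14.6 to 29.4), against 56.0% of all protein-coding genes. At 25 °C, 19 were marked (16.7%, 10.9 to 24.6), against 59.5%. In all, 11 members were marked in both lists (9.65%), where 50.2% of all genes were, and 82 members in neither (71.9%), where 34.7% of all genes were. The part of a gene body that regions take up, its covered percent, had a mean of 1.65% over members at 16 °C and 1.81% at 25 °C. Over all genes it was 14.0% and 18.7%. When regions below the median −log10 p of their list were left out, 5 members kept a region at 16 °C and 6 at 25 °C, against 43.6% and 46.9% of all genes. These intervals reflect only the counting of genes, which are related to each other and are no replicates.

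**Figure D1:**
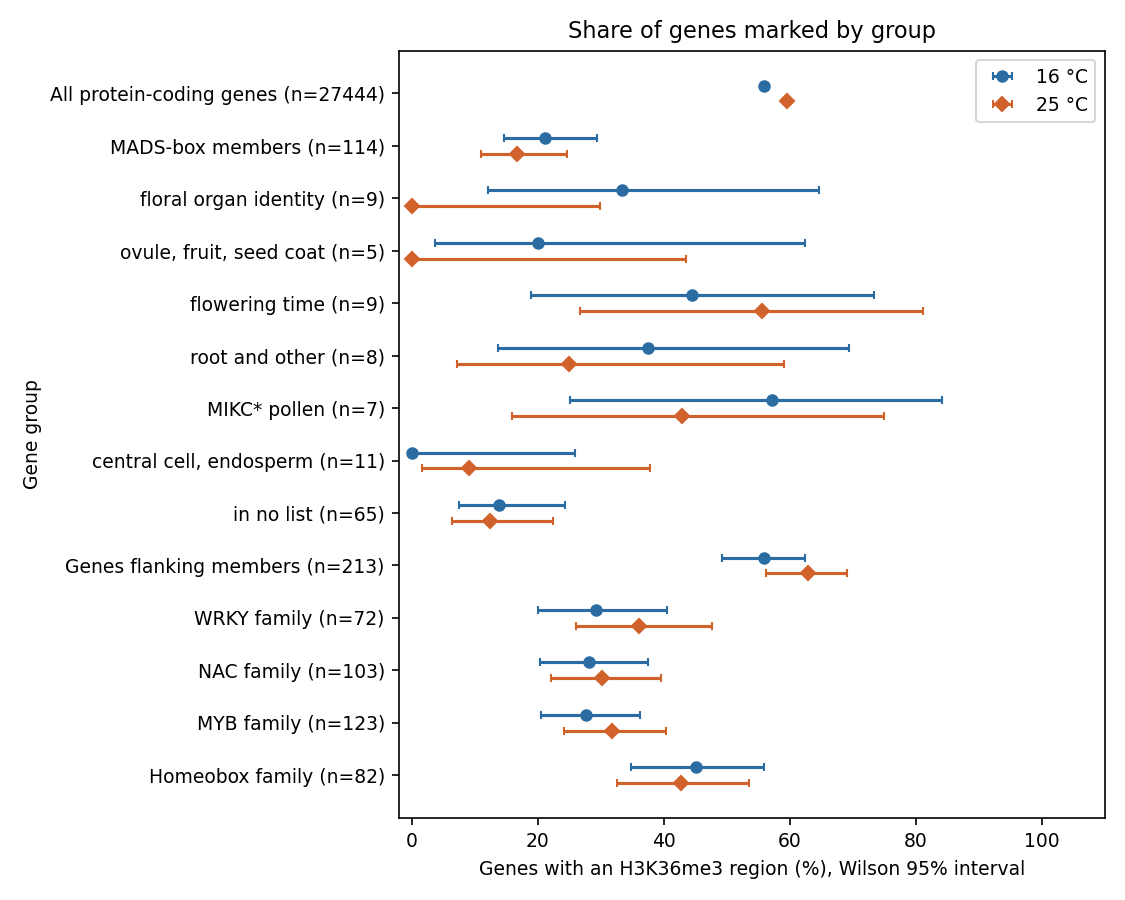
Share of genes with an H3K36me3 region at 16 °C (circles) and 25 °C (diamonds) for all protein-coding genes, the 114 members, their subgroups by role, the genes flanking members and other transcription factor families; bars are Wilson 95% intervals and n is the number of genes. The members lie at 21.1% and 16.7%, to the left of all genes at 56.0% and 59.5% and of their own flanking genes at 55.9% and 62.9%.

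The genes next to members did not share this low level. Of 213 flanking protein-coding genes, each counted once, 119 were marked at 16 °C (55.9%, 49.2 to 62.4) and 134 at 25 °C (62.9%, 56.3 to 69.1). The flanking genes of all protein-coding genes reached 56.1% and 59.7%. The other large transcription factor families lay between the members and all genes. The share of marked genes at 16 °C and 25 °C was 29.2% and 36.1% for 72 WRKY genes, 28.2% and 30.1% for 103 NAC genes, 27.6% and 31.7% for 123 MYB genes, and 45.1% and 42.7% for 82 homeobox genes. The interval of the members overlapped those of the WRKY, NAC and MYB families at 16 °C. At 25 °C it overlapped those of NAC and MYB and lay below those of WRKY, from 26.0 to 47.7, and of homeobox genes, from 32.5 to 53.5. Single-exon genes made up 45.6% of members but 1.39%, 9.71%, 3.25% and 14.6% of these families in the same order. Members with 2 or more exons were marked in 30.7% at 16 °C and 24.2% at 25 °C. Their share lay above those of WRKY, NAC and MYB genes at 16 °C and below that of each family at 25 °C. The families were not limited to genes with 2 or more exons.

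Since short genes were marked less often, members were also compared with genes of like length. The median length was 1172 bp for members and 2078 bp for all genes, and 52 members (45.6%) had a single exon, against 18.9% of all genes. In genes under 1000 bp, 3 of 42 members were marked at 16 °C (7.14%) and 2 at 25 °C (4.76%), against 14.5% and 17.2% of all genes of that length. Between 2000 and 2999 bp, 7 of 22 members were marked at 16 °C (31.8%) and 4 at 25 °C (18.2%), against 69.9% and 73.6%. In the class of 4000 bp and longer, 5 of 9 members were marked at 16 °C (55.6%) and 2 at 25 °C (22.2%), against 86.6% and 88.7%. In each of the 5 length classes the member share lay below that of all genes in both lists. Members with 2 or more exons numbered 62, of which 30.7% were marked at 16 °C and 24.2% at 25 °C, against 62.4% and 65.8% of all such genes.

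**Figure D2:**
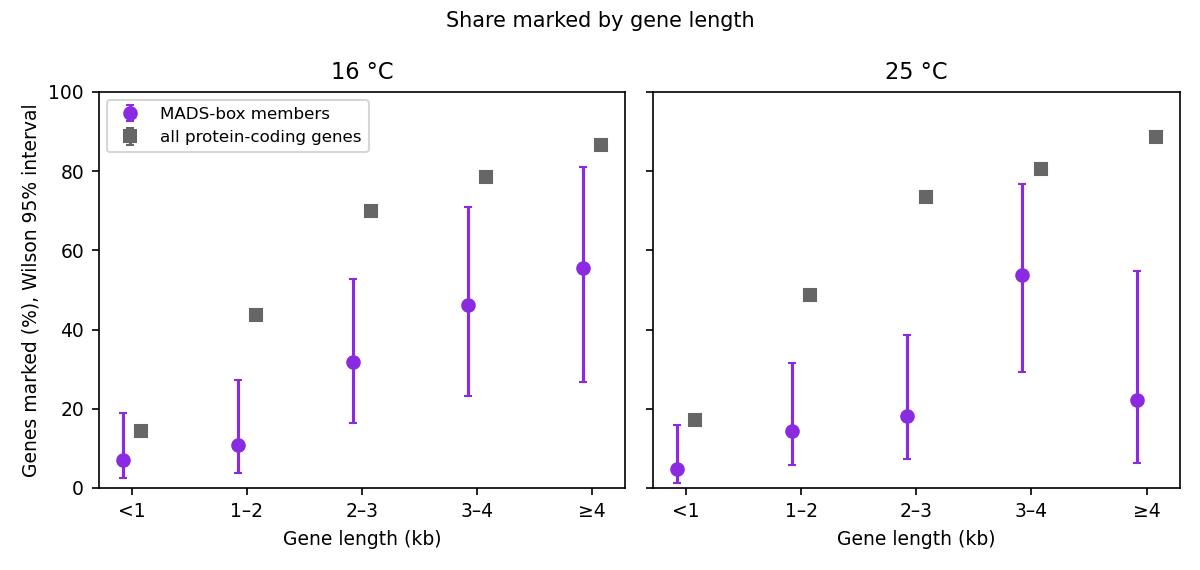
Share of genes marked at 16 °C (left) and 25 °C (right) by gene length in kb, for the members (circles) and all protein-coding genes (squares), with Wilson 95% intervals. In both panels the members lie below all genes in each class, for example at 31.8% against 69.9% between 2 and 3 kb at 16 °C.

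The regions found in members were narrow. At 16 °C, members held 35 regions with a median width of 120 bp, of which 5 (14.3%) were wider than 150 bp, the length to which reads had been extended. Of 43907 regions centred in protein-coding genes, 47.6% were wider than that. At 25 °C, members held 34 regions with a median width of 100 bp, of which 9 (26.5%) were wider than 150 bp, against 52.3% of 46382. The median height, the highest pooled read coverage in a region, was 242 at 16 °C and 242 at 25 °C in members, and 282 and 302 in all genes. Counted by gene, 5 members (4.39%) had a region wider than 150 bp at 16 °C, where 41.4% of all genes did. At 25 °C, 6 members (5.26%) had one, where 46.1% of all genes did.

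Most of the covered sequence lay in few members. AGL16, AGL18, AT1G31150, AGL30 and AGL65 held 58.4% of the 4780 bp covered in members at 16 °C and 74.8% of the 5738 bp at 25 °C. These 5 genes were the members with a mean covered percent of at least 10%. By the place of their centre, 9 regions at 16 °C lay in 5′ UTR exons of an annotated transcript, 11 in coding sequence, 11 in introns and 4 in 3′ UTRs. At 25 °C, 11 lay in 5′ UTR exons, 12 in coding sequence, 10 in introns and 0 in 3′ UTRs. A further 1 was centred outside the member it touched. Some of the 5′ UTR centres of AGL16, AGL18 and AGL30 lay in introns of the transcript with the longest coding sequence.

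Where the regions of long members lay along the gene was asked next. Of 37 members of the MIKC and MIKC* lists that were at least 2000 bp long, 4 (10.8%) had a region between 400 and 599 bp after the gene start at 16 °C, and 4 (10.8%) at 25 °C. All genes of this length were at their highest there, with 57.1% and 62.3%. Over the first 1600 bp the member shares lay between 5.41% and 10.8% at 16 °C. At 25 °C they were 8.11% in the first 200 bp, 16.2% in the next and 10.8% or less after that. These counts are of 6 genes or fewer per bin, with overlapping intervals, so a rise after the start like that of all genes could not be resolved.

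**Figure D3:**
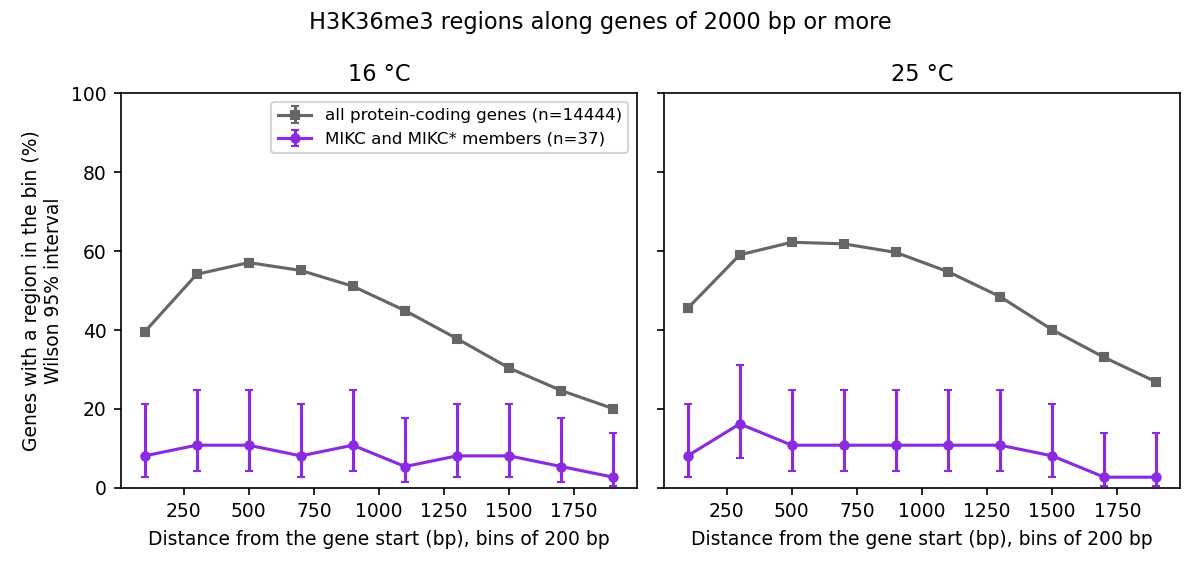
Percent of genes holding a region, per 200 bp bin of the first 2000 bp, at 16 °C (left) and 25 °C (right), for 37 MIKC and MIKC* members and 14444 protein-coding genes of 2000 bp or more, with Wilson 95% intervals. All genes are highest between 400 and 599 bp, at 57.1% and 62.3%, while the members stay at 16.2% or less.

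Cover after the shift to 25 °C was compared gene by gene. Cover was higher at 25 °C in 15 members (13.2%), where it was higher in 47.3% of all genes. It was lower in 17 members (14.9%), where it was lower in 17.2% of all genes. The order of these counts was not stable, since 4 members were higher and 3 lower without the regions below the median −log10 p of their list. It was 12 and 11 in the first 1000 bp of each gene, and 14 and 13 among members overlapping no other gene. Marked at 16 °C only were 13 members (11.4%), against 5.78% of all genes, and marked at 25 °C only were 8 (7.02%), against 9.32%. The 32 members marked in either list had a median change of -0.78 percentage points, and the 17918 genes marked in either list one of 6.02. Genes with no region in either list, 71.9% of members and 34.7% of all genes, can be neither higher nor lower. Of the 17918 genes, 12994 were higher at 25 °C and 4710 lower, beside 15 and 17 of the 32 members. Beside these differences, the organelles held 53.9% of the signal in regions at 16 °C and 39.8% at 25 °C. The part of that shift in the values of members was not tested.

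Few regions in members overlapped a region of the other list. Of the 35 regions at 16 °C, 10 (28.6%, 16.3 to 45.1) were overlapped by a 25 °C region, against 70.0% of regions in all genes. Of the 34 at 25 °C, 10 (29.4%, 16.8 to 46.2) were overlapped by a 16 °C region, against 54.3%. Narrow regions of 100 bp or less made up 37.1% of the member regions at 16 °C and 52.9% at 25 °C, against 28.04% and 25.4% in all genes, and their part in this difference was not tested. Among the 11 members marked in both lists, 6 had regions that overlapped between the lists, which were AGL65, AT1G31150, AGL30, AT2G41440, AGL16 and AGL18. The overlap in AT2G41440 was 10 bp, the step in which regions are given. In AGL104, AGL24, AGL19, AGL44 and AGL105 the regions of the lists lay at separate places. The share of such genes among all genes marked in both lists was not counted, so these 11 members have no background to be read against.

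**Figure D4:**
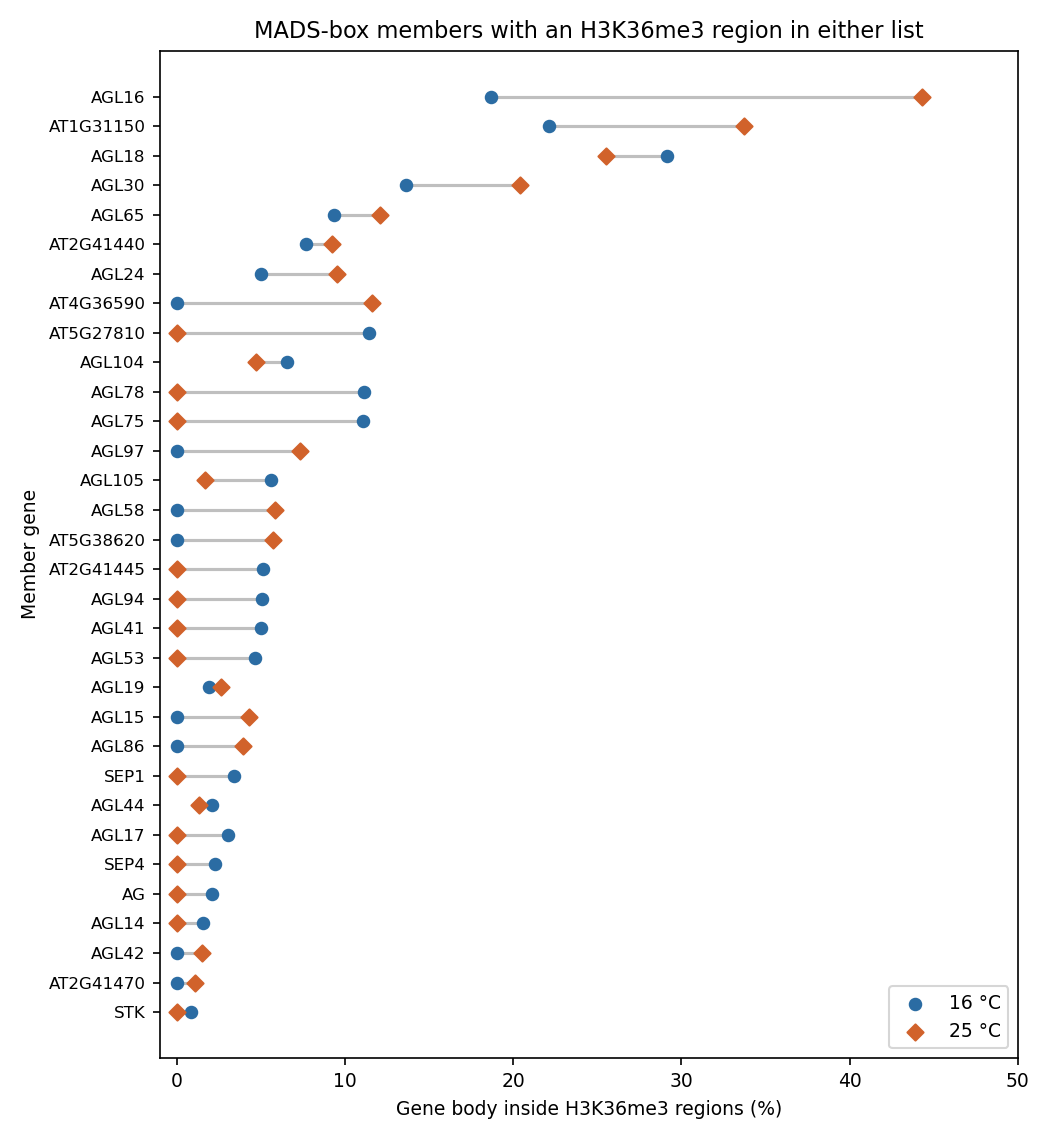
Covered percent of the 32 members with a region in either list, at 16 °C (circles) and 25 °C (diamonds), ordered by the mean of both values. AGL16 shows the largest difference, 18.7% at 16 °C and 44.3% at 25 °C. In all, 21 of the 32 members are at 0 in one of the lists. Of the 17918 protein-coding genes with a region in either list, 1585 lacked one at 25 °C and 2558 lacked one at 16 °C.

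AGL16 was the most covered member at 25 °C and by the mean of both lists, while AGL18 and AT1G31150 were covered more at 16 °C. It encodes a MIKC protein known as a repressor of flowering and a target of the microRNA miR824, which acts in the stomatal lineage. The gene lies at chr3:21177282-21181026 on the plus strand. At 16 °C it held 4 regions of at most 260 bp covering 18.7% of its body, and at 25 °C 2 regions, of 760 and 900 bp, covering 44.3%. The first 25 °C region began at the same position as the first 16 °C region and ran over the second one. The tallest region had a height of 304 at 16 °C and 513 at 25 °C, where the medians of all regions of the lists were 275 and 292. Its upstream neighbour AT3G57220 was covered over 30.2% and 49.5% of its body, while its downstream neighbour AT3G57240 was without regions.

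AGL18 had the opposite order of values. It encodes an embryo-expressed MADS protein that represses the floral transition together with AGL15, and lies at chr3:21233472-21235978. At 16 °C, 3 regions, the widest of 540 bp, covered 29.1% of it, and at 25 °C 4 regions, the widest of 220 bp, covered 25.5%. The widest 16 °C region overlapped 2 of the narrower 25 °C regions. AGL15 itself had no region at 16 °C and 1 of 90 bp at 25 °C, centred in intron 1 and covering 4.29%. Of the bases of that region, 25 lay in the part coding for the MADS domain.

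AGL30 and AGL65, for MIKC* proteins that act in pollen maturation, also had regions near the start in both lists. The 3 regions of AGL30 at 16 °C, of at most 150 bp, covered 13.6% of it, and its 4 regions at 25 °C, the widest of 460 bp, covered 20.4%. AGL65 had 9.34% covered at 16 °C by 2 regions and 12.1% at 25 °C by 4, with widest regions of 170 and 180 bp. In both genes a stretch of 5′ UTR exon of an annotated transcript lay inside regions of both lists. For AGL30 this stretch is intron in the transcript with the longest coding sequence.

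In AGL24 the regions of the lists lay in different parts of the gene. It promotes the floral transition and is the closest relative of SVP, but is not named in the rule that left SVP out. At 16 °C its 2 regions, of 120 and 40 bp, were centred 1546 and 1686 bp after the gene start, both in intron 3 of 8. At 25 °C its 2 regions, of 140 and 180 bp, were centred 56 and 456 bp after the start, in 5′ UTR exons. Regions took up 4.98% of the gene at 16 °C and 9.53% at 25 °C.

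**Figure D5:**
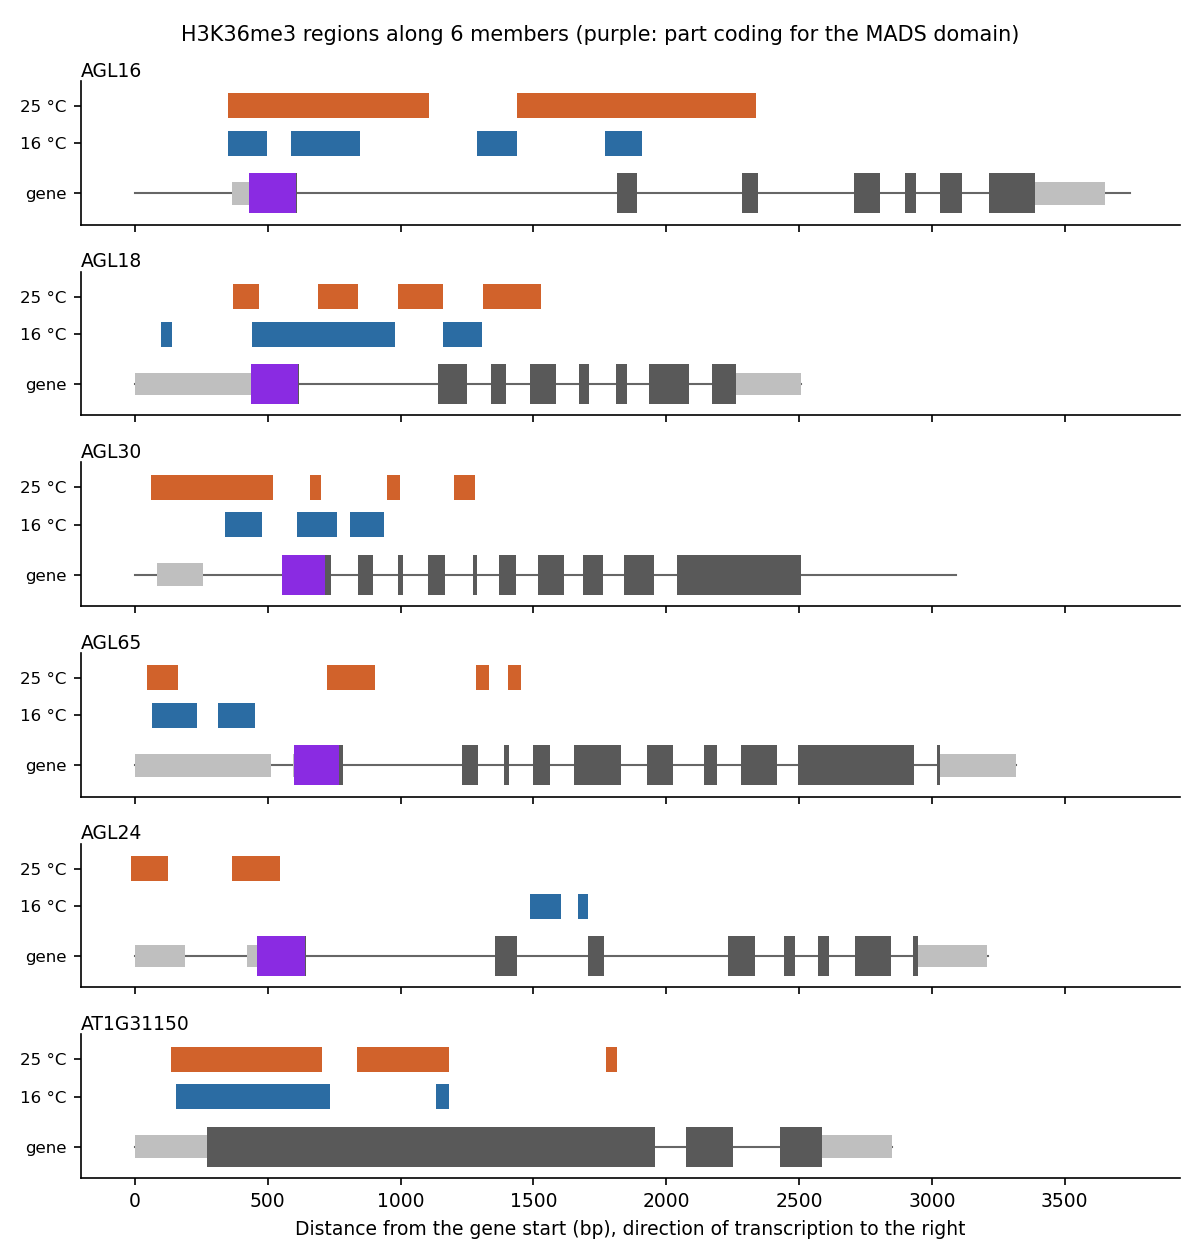
Regions at 16 °C (blue) and 25 °C (orange) along 6 members, drawn to scale from the gene start in bp; thin grey boxes are UTR exons, dark boxes coding exons and purple boxes the part coding for the MADS domain, of the transcript with the longest coding sequence. AGL16 has 4 separate regions at 16 °C and 2 wide ones of 760 and 900 bp at 25 °C, while the regions of AGL24 lie in an intron at 16 °C and at the start at 25 °C.

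The coding sequence of the MADS domain, which gives the family its name, lay inside regions in few members. Its sequence is shown for AGL16, AGL18 and AGL30, the members in which regions of both lists reach into it, from TAIR10.1 on the plus strand, 5′ to 3′. Capitals mark the bases lying inside a region of both lists. The stretches are chr3:21177710-21177889 for AGL16, chr3:21233910-21234086 for AGL18 and chr2:901614-901775 for AGL30, and each starts at the start codon.
AGL16: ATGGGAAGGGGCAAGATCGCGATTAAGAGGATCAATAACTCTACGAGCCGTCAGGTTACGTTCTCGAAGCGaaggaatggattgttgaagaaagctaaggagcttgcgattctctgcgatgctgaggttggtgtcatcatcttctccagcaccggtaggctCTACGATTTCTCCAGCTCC
AGL18: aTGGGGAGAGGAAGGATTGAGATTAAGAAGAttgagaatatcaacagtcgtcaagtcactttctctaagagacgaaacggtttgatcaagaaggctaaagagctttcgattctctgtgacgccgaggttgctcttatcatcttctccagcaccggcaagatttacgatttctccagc
AGL30: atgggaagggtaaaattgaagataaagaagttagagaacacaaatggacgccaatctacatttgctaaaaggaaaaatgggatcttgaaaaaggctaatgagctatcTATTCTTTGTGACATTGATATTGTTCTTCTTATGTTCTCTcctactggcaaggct

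Of the 180 bases of AGL16 shown, 90 lay inside regions at 16 °C and 180 at 25 °C. In AGL18 the order was the reverse, with 176 of 177 bases at 16 °C and 31 at 25 °C, and in AGL30 it was 105 of 162 at 16 °C and 40 at 25 °C. AGL24 had 0 of 180 bases inside regions at 16 °C and 85 at 25 °C. Its MADS-coding sequence, at chr4:12673466-12673645 on the minus strand, is shown with the bases inside the 25 °C region in capitals.
AGL24: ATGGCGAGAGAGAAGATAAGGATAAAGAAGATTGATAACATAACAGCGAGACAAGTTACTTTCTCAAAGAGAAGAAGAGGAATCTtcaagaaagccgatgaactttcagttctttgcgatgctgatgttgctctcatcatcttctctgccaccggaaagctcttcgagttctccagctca

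Over the 102 members with a MADS domain, regions reached into the coding part of the domain in 3 genes at 16 °C, the ones shown first. At 25 °C they did so in 7 genes, which were AGL65, AGL86, AGL30, AGL16, AGL18, AGL24 and AGL15. In all, 2.36% of 15717 MADS-coding bases lay inside regions at 16 °C and 2.83% at 25 °C. Other coding sequence of these genes reached 1.04% and 1.11%, and introns 1.38% and 1.55%. AGL16 and AGL18 weighed on these shares. Without AGL18 the MADS-coding share was 1.25% at 16 °C and 2.66% at 25 °C. Other coding sequence was then at 0.904% and 0.938%, and introns at 1.31% and 1.395%, so introns lay above at 16 °C. Without AGL16 the MADS-coding share was 1.81% and 1.71%, that of other coding sequence 0.859% and 0.791%, and that of introns 1.35% and 1.01%.

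Whether members with a K domain differ from those without one was also looked at. Of the 39 members with MADS and K domains, 14 were marked at 16 °C (35.9%, 22.7 to 51.6) and 9 at 25 °C (23.1%, 12.7 to 38.3). Of the 63 with a MADS domain only, 6 were marked at 16 °C (9.52%, 4.44 to 19.3) and 7 at 25 °C (11.1%, 5.49 to 21.2). The intervals did not overlap at 16 °C and did at 25 °C. These groups do not follow the gene types throughout. AGL65 and AGL33 of the MIKC* list had no K domain by this search, while the single-exon genes AGL49 and AGL50 had one. The median gene length was 2953 bp with a K domain and 990 bp without, and the part of length in this difference was not tested. Of the 12 members with no MADS domain, 4 were marked at 16 °C and 3 at 25 °C.

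The floral organ identity genes held few and narrow regions at 16 °C and none at 25 °C. This list holds the A, B, C and E function genes AP1, CAL, AP3, PI, AG and SEP1 to SEP4, whose products combine to specify sepals, petals, stamens and carpels. A region was found in 3 of the 9 genes at 16 °C (33.3%, 12.1 to 64.6) and in 0 at 25 °C. The interval at 16 °C held both the 21.1% of all members and the 56.0% of all genes. AG, needed for stamens and carpels, had 1 region of 120 bp at 16 °C in intron 2, which is 2999 bp long, covering 2.11% of the gene. SEP1 had 1 region of 100 bp in intron 5, covering 3.43%, and SEP4 1 of 60 bp in intron 1, covering 2.30%. These regions were centred in introns, that of SEP1 with 36 of its bases in coding sequence, and were present in the 16 °C list only. AP1, CAL, AP3, PI, SEP2 and SEP3 had none in either list.

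The genes of ovule, fruit and seed coat were alike in this. STK, for ovule identity, had 1 region of 40 bp at 16 °C, in intron 3, covering 0.82%. SHP1, SHP2, FUL and TT16, the others of the 5 members of this list, had no region at either temperature.

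Among the 9 flowering time members, 4 were marked at 16 °C and 5 at 25 °C. Besides AGL18, AGL15 and AGL24, these were relatives of the floral integrator SOC1. AGL19, which promotes flowering after cold, had 1.91% covered at 16 °C and 2.63% at 25 °C, each by 1 region in intron 2 but at separate places. AGL14 had 1.57% covered at 16 °C, and none at 25 °C. AGL42 had none at 16 °C and 1.51% at 25 °C, by a region of 60 bp. SOC1, AGL71 and AGL72 were without regions in both lists.

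Of the 8 members of the root and other MIKC list, 3 were marked at 16 °C and 2 at 25 °C. Apart from AGL16 these were AGL17 and AGL44. AGL17, a root-expressed gene, had 3.03% covered at 16 °C by 1 region of 120 bp and none at 25 °C. AGL44, also known as ANR1, acts in the response of lateral roots to nitrate. It had 2.07% covered at 16 °C by a region centred in intron 1, and 1.32% at 25 °C by another in intron 2. AGL6, AGL12, AGL13, AGL21 and AGL79 were without regions in both lists.

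The MIKC* list had the highest share of marked members at 16 °C, with 4 of 7, and 3 of 7 at 25 °C. With 7 genes the intervals were wide, and at 16 °C ran from 25.1 to 84.2%. Besides AGL30 and AGL65, AGL104 had 6.56% covered at 16 °C by a region of 140 bp centred in an intron. At 25 °C it had 4.68% covered by 1 of 100 bp centred in coding sequence. AGL94 had 5.09% covered at 16 °C by 1 region of 140 bp in the 5′ UTR, and none at 25 °C. AGL33, AGL66 and AGL67 had none.

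Type I genes known from the central cell and endosperm held a single region. It was found in the 25 °C list, where 1 of 11 genes was marked, and 0 of 11 had one at 16 °C. The marked gene was AT4G36590, also called AGL40. Of its body, 11.6% was covered by 1 region of 150 bp, centred in coding sequence near the end of the gene. PHE1, PHE2, AGL62, which controls the timing of endosperm cellularization, AGL61 and AGL80, which act in the central cell, and 5 further genes of the list had none.

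The other 65 members belonged to none of these lists, and 9 of them were marked at 16 °C and 8 at 25 °C. The most covered was AT1G31150, one of the members with no MADS domain. Its 2 regions at 16 °C, the widest of 580 bp, covered 22.1% of it, and its 3 regions at 25 °C, the widest of 570 bp, covered 33.7%. Its tallest region, with a height of 606 at 16 °C and 656 at 25 °C, was above the 90th percentile of its list, which was 497 and 584. AT2G41440, also without a MADS domain, had 7.69% covered at 16 °C and 9.23% at 25 °C.

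The remaining differences in this group came from single narrow regions. AT5G27810, of 788 bp, had 11.4% covered at 16 °C by 1 region of 90 bp, AGL78 had 11.1% by 1 of 120 bp and AGL75 11.1% by 1 of 110 bp, and none of these genes had a region at 25 °C. AT2G41445, which has no MADS domain, had 5.14% covered at 16 °C and none at 25 °C. AGL97 had none at 16 °C and 7.34% at 25 °C by a region of 60 bp. These values include the largest decreases among members, and each rests on a single region in one list.

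In AGL105 the 25 °C value came from the edge of another gene. A region of 70 bp covered 5.58% of AGL105 at 16 °C, and at 25 °C a region of 120 bp centred 39 bp before its start, which also overlapped AT5G37420, covered 1.67%. Other members that overlap an annotated gene had no region in the shared part.

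Regulators and partners of floral MADS-box genes were looked at beside the members, as a list of 16 genes. Of these, 10 were marked at 16 °C (62.5%, 38.6 to 81.5) and 11 at 25 °C (68.8%, 44.4 to 85.8), against 56.0% and 59.5% of all genes. Their median length was 3242 bp, and of all genes between 3000 and 3999 bp 78.5% and 80.6% were marked, so the list did not lie above genes of like length. HUA2, for a PWWP domain protein that acts in AG transcript processing and the expression of floral repressors, had 59.2% covered at 16 °C and 81.8% at 25 °C. SEU and LUG, for co-repressors that act together on AG, had 39.5% and 44.8%, and 37.2% and 40.9%. LFY, UFO, FT and TFL1 had no region. Of the 7 FLC and SVP clade genes that the rule leaves out, 6 were marked at 16 °C and 7 at 25 °C. Their median covered percent was 6.58% and 26.1%, where the median of the members was 0 in both lists. Cover differed among them, as FLC, MAF4 and MAF5 had at most 4.1% in either list, and FLM, SVP, MAF2 and MAF3 at least 6.58%. Their median length was 4255 bp, against 1172 bp for the members, and the part of length in this contrast was not tested.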

How the data were processed

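H3K36me3 regions were analysed as deposited, 1 list per temperature. The authors mapped reads to TAIR10 (Bowtie2 in the submitters' processing notes, Bowtie in the study's methods, no versions), pooled the replicates of a temperature and called regions by DANPOS2 Dpeak after extending reads to 150 bp. In the deposited lists the height and total signal of a region are read coverage, and the −log10 p-value of its height was also set by the authors' caller. The lowest height was 179 in both lists and the lowest −log10 p 10.1. How the H3 libraries entered the calling is not given in the sources used. Widths are end minus start, in steps of 10 bp.

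Gene models and sequences came from RefSeq TAIR10.1, which has the nuclear chromosome lengths of TAIR10. Overlaps were computed with Python 3.11.15, numpy 2.4.6 and pandas 2.3.3, Wilson intervals with scipy 1.17.1, and the overlap code was tested on simulated data. Translations (Biopython 1.88) were searched with jackhmmer of HMMER 3.4, at most 5 rounds, E-value 0.001, from SEP3 residues 1 to 60 (MADS) and 80 to 170 (K). With pooled lists no replicate test was possible, so counts and medians stand beside those of all genes. Named members were the 10 most covered, the 5 largest rises and 5 largest falls, those with a region wider than 300 bp, marked members of each role list, members sharing a region with an overlapping gene, and the 3 most covered regulators. Further genes named at 0 are members of these lists. The members, lists and rule were chosen with earlier results of these data known. Alternatives changed the regions, the overlap, the part of the gene or the members used.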

Additional observations from a re-analysis of the deposited data

How the results depend on the processing

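Of 48 alternative counts, 35 stayed within 1.5 times the reported count and 13 did not. They are for the 114 members, except those for the 99 overlapping no other gene and the 102 with a MADS domain. Some of the 35 could not move. Counts of members with a region wider than 150 bp are fixed when only regions of 100 bp or wider are kept. Equal numbers of the tallest regions left the shorter 16 °C list whole. With regions of 100 bp or wider only, 11 members were marked at 25 °C, and the cover was higher at 25 °C in 8 and lower in 11, while the shares of all genes were 49.9% at 16 °C and 53.5% at 25 °C. With only the regions at or above the median −log10 p of their list, 5 members were marked at 16 °C and 6 at 25 °C, with 4 higher and 3 lower, while all genes kept 43.6% and 46.9%. With at least 75 bp of the gene body inside regions, 11 were marked at 25 °C, 9 were higher and 11 lower. Counting only the first 1000 bp of each gene, 14 were marked at 16 °C and 15 at 25 °C, with 12 higher and 11 lower at 25 °C. The order of both pairs thus turned under this and the −log10 p setting, and that of higher and lower also among members overlapping no other gene (14 and 13). Among the 102 members with a MADS domain, 3 had a region wider than 150 bp at 16 °C. That alternative was chosen after seeing the data, in place of a planned one from a protein table, which was not run. Equal numbers of the tallest regions, region centres and members overlapping no other gene moved no count past 1.5 times.

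Leaving out a replicate was not possible because each list pools them, and read depth is unknown, so a weak mark below the calling level (a height of about 179) would not be seen in either list. No paired analysis was possible because the lists carry no replicate values. Many marked members hold 1 narrow region, and the difference between temperatures has no replicate check.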

Other observations

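Whether members without a region lay between marked genes was looked at. Of the 82 members with no region in either list, 18 (21.95%, Wilson 95% interval 14.4 to 32.1) had both neighbouring protein-coding genes marked at 16 °C, and 29 (35.4%, 25.9 to 46.2) at 25 °C. Over all 9523 genes with no region and 2 neighbours, these shares were 23.5% and 26.5%, both inside the intervals of the members. Both neighbours were marked in both lists for 18.3% of these members and 18.3% of these genes. AGL62 was such a case, with 27.5% and 44.0% of its neighbour AT5G60430 covered at 16 °C and 25 °C, and 33.6% and 42.6% of its neighbour AT5G60450. SOC1, listed as AGL20, and AGL6 lie next to each other on chromosome 2, and neither had a region, while the next gene, AT2G45670, had 32.2% covered at 16 °C and 44.8% at 25 °C.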
